A study of Mus musculus with 20 samples.

Results

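The regions described here are the N6-methyladenosine (m6A) peaks that the authors placed in 3' untranslated regions (3' UTRs) and that lie in 1 unbroken block of the genome, with no splice junction inside the peak. They were taken from the 2 deposited peak tables by the position class and a block count of 1, with repeated coordinates kept once. This gave 4811 of 13450 peaks in CD4 and CD8 double-positive (DP) thymocytes and 5243 of 12542 peaks in invariant natural killer T (iNKT) cells, 10054 of 25992 in all. They made up 78.6% of all DP and 92.4% of all iNKT peaks in 3' UTRs, and the others (1308 and 430) were made of several blocks and are called spliced here.

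The study measured m6A in thymocytes of C57BL/6 mice aged 6 to 8 weeks, either wild type or Mettl3fl/flCD4-cre, in which floxed Mettl3 is removed by a Cre recombinase under Cd4 control. iNKT cells, sorted as 7AAD-CD1d-Tet+TCRbeta+, gave 12 libraries, with 3 replicates of input and of m6A immunoprecipitate for each genotype. DP cells, sorted as 7AAD-CD1d-Tet-CD4+CD8+, gave 8 libraries, with 2 replicates of each kind. Polyadenylated RNA was cut to fragments of about 150 nt, and the labels name both m6A-seq and m6A-LACE-seq, a version for low input, but do not tie either to a cell type, and a difference between cell types cannot be told apart from one between protocols. Pooling of mice is not given in the sources used here, and wild-type cells are not said to carry the Cre.

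m6A is written on messenger RNA by a complex whose catalytic subunit is METTL3, mostly at an adenosine in a short motif of which GGACU is the best known form. The mark is concentrated around stop codons and in 3' UTRs, where proteins of the YTH family bind it, and YTHDF proteins are known for shortening the life of the RNAs they bind. 3' UTRs also hold microRNA sites and the elements bound by decay factors such as the ZFP36 family, and in thymocytes many short-lived signalling and transcription factor messages are controlled there.

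Each row of the authors' deposited tables lists the fold enrichment of immunoprecipitate over input (a ratio), and compares methylation between the genotypes by a log2 fold change with its false discovery rate (FDR). The tables hold no values for single libraries, so no spread between replicates stands behind any value below, the depth of each library is unknown, and the FDRs are the authors' own. No source used here states which genotype a positive log2 fold change favours. Below zero was read as lower in Mettl3-deleted cells, which is likely but not certain: the authors' gene list holds 4336 of 4337 named genes with a negative DP peak and 5339 of 5343 with a negative iNKT peak, no other gene with a peak is in either list, and the deleted gene encodes a writer of the mark. If the sign runs the other way, every lower and higher below changes place. Mettl3 has no peak among these regions, and without transcript levels the loss of Mettl3 could not be checked. In bulk samples, fewer methylated molecules and a different mix of cells cannot be told apart. A peak is called lower or higher below only where its differential FDR was at most 0.05.

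The letters of most peaks were not read, but 22 DP and 31 iNKT unspliced 3' UTR peaks run into the 300-nt window around the start of another gene for which RefSeq sequence (GRCm38.p6, the mm10 assembly) was at hand. In those covered stretches, GGACT, the DNA form of the m6A motif, was found on the strand of the peak in 4 of the 22 DP peaks and 3 of the 31 iNKT peaks. For comparison, 26.1% of all 32851 such windows hold GGACT on the strand of their gene; the covered stretches are shorter than a window, and a match is a description, not a methylated site. The stretches below show the motif in capitals with 12 bases on each side. Pcif1 is shown because its peak was lower in iNKT cells, Usp3 because its site was covered by a peak in both cell types, and Dhrs13 because its peak was the most enriched of those with the motif.
Pcif1, chr2:164891155-164891183, plus strand: cacagactgctaGGACTcagcctcagggc
Pcif1, chr2:164891192-164891220, plus strand: ggggtggcagcaGGACTtgagctgccagg
Usp3, chr9:66514754-66514782, minus strand: gctcttctgccaGGACTttcaggccctct
Dhrs13, chr11:78037702-78037730, plus strand: ggaattgggaaaGGACTaagtcagggcag

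Pcif1 encodes the enzyme that methylates the first transcribed adenosine next to the cap. Its 420-nt 3' UTR peak in iNKT cells, of which 277 nt were covered and which held both Pcif1 stretches, had a fold enrichment of 2.45 and a log2 fold change of -3.05 (FDR 0.033) in the authors' deposited table. The Usp3 site lay in a 120-nt peak in each cell type, with log2 fold changes of 0.51 in DP cells (FDR 0.65) and 0.53 in iNKT cells (FDR 0.76), neither of which passed. Usp3 encodes a histone deubiquitinase. The Dhrs13 peak, with a fold enrichment of 16.2 in DP cells, had a log2 fold change of -0.35 (FDR 0.73) and did not pass either. Counted on either strand, a microRNA hairpin overlapped 7 DP and 4 iNKT unspliced 3' UTR peaks. The peaks in Rab22a, Mex3a and Pml and a minus-strand peak over Mir671 lay on the strand opposite the microRNA. Mir6340 and Mir671 were each overlapped by more than 1 of the DP peaks. Of all these peaks 1 passed. It is a 60-nt iNKT peak in the gene of Oaz1, which encodes an inhibitor of polyamine synthesis, and it held the mature miR-1982-3p, shown with its seed (bases 2 to 8) in capitals.
mmu-miR-1982-3p: uCUCACCCuauguucucccacag
That peak was higher in Mettl3-deleted cells, with a log2 fold change of 5.68 (FDR 5e-40) and a low fold enrichment of 1.5. The authors named it Mir1982.

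The unspliced 3' UTR peaks were shorter and more enriched in iNKT than in DP cells. In the authors' deposited DP table their median length was 240 nt (quartiles 150 and 361) and their median fold enrichment 5.25 (quartiles 3.13 and 10.4). In the iNKT table the median length was 181 nt (quartiles 121 and 270) and the median fold enrichment 8.11 (quartiles 4.3 and 19.2). Lengths ran from 58 to 2341 nt in DP and from 59 to 1557 nt in iNKT cells, and 94.9% and 97.1% of them lay within 2 nt of a multiple of 30. The same held for all peaks of each table, with median lengths of 241 nt in DP and 181 nt in iNKT cells and median fold enrichments of 4.7 and 8.32. No comparison of the cell types was tested, since each table has its own libraries.

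The longest DP peaks were those of Phf3 (2341 nt), Zfp292 (2250 nt) and Zbtb1 (2217 nt), all nuclear proteins, and none of them passed, with log2 fold changes of -0.11, 0.42 and -0.27. The longest iNKT peaks lay in Spata13 (1557 nt), which encodes a guanine nucleotide exchange factor, in Arid1a (1499 nt), a subunit of the SWI/SNF chromatin remodeller, and in Prag1 (1407 nt). All 3 were lower, with log2 fold changes of -1.18, -2.86 and -2.81. Fold enrichment was highest in DP cells for Cytip (75.8), Rnf103 (71.1), Rps6kb1 (68.8), Snx33 (58.4) and Inpp1 (56.4), and none of these passed. Rps6kb1 encodes the S6 kinase downstream of mTOR, and the log2 value of its peak was 0.12. In iNKT cells the highest values were far above those, at 3040 for Hras, 2020 for Ubtd1, 1670 for a peak named Znhit2, 1270 for Sec22c and 854 for Lmtk3. Of these 5, only the peaks of Hras (log2 fold change -5.52), Sec22c (-5.62) and the peak named Znhit2 (-2.96) were lower, the last 2 at FDRs of 0.01 and 0.031.

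Many of these peaks carry the name of a neighbour. Peaks were set against RefSeq gene positions, leaving out genes known to lie on the other strand. Of DP and iNKT unspliced 3' UTR peaks, 64.8% and 60.6% lay inside the gene they are named after. A further 31.3% and 33.5% lay inside another single gene, and 3.66% and 5.82% inside none. The gene that holds the peak is used as its name below. A peak named Pik3r6 lay in Pik3r5, peaks named Skp1 lay in Tcf7, and peaks named Nodal lay in Eif4ebp2. The holding genes numbered 3490 in DP and 3670 in iNKT cells, and for 1955 and 2172 of them unspliced 3' UTR peaks were the only peaks listed. Rows can share sequence: 434 DP and 431 iNKT peaks overlapped another of their table, 130 and 127 of these clusters held peaks of both strands, and merging left 4589 and 5020 separate sites.

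Few of these peaks passed in DP cells, and most of those were higher after Mettl3 loss. The authors' deposited table for DP cells had 5 of 4811 lower (0.104%, Wilson 95% interval 0.0444 to 0.243) and 30 higher (0.624%, 0.437 to 0.889), beside 0.743% lower and 0.483% higher among all peaks of the table. Among spliced 3' UTR peaks the counts were turned round, with 23 of 1308 lower (1.76%) and 8 higher (0.612%). The median log2 fold change was 0.08 over the unspliced (interval 0.05 to 0.10), -0.06 over the spliced and 0.0 over all peaks. These shares cover counting error only, and the difference between the position classes was not tested. No gene held more than 1 passing peak, and only 12 of the 30 higher peaks and 1 of the 5 lower ones changed by at least 2-fold.

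The 5 lower DP peaks lay in Sh3bgrl, Cyb5b, Nop56, Rpl12 and Marcks. Sh3bgrl had the largest drop in the authors' deposited table, a log2 fold change of -1.32 (FDR 0.028), and Cyb5b, an outer mitochondrial cytochrome, had -0.80 (FDR 0.013). The Nop56 peak carries the name of Snord57, a small nucleolar RNA inside that gene, and had -0.62 (FDR 0.013). Rpl12, a ribosomal protein, had -0.47 (FDR 0.023), and Marcks, a substrate of protein kinase C at the membrane, had -0.40 (FDR 0.013). Their fold enrichments were low, between 1.29 for Rpl12 and 4.17 for Nop56, and no iNKT unspliced 3' UTR peak overlapped any of them.

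The 30 higher DP peaks had a median log2 fold change of 0.74 (quartiles 0.42 and 1.49) and included Bcl11b and Satb1. Bcl11b, a transcription factor that T cells need for lineage commitment, had the smallest FDR in the authors' deposited DP table (0.00018), over a 2096-nt peak on chromosome 12 from 107915131 to 107917226, with a log2 fold change of 0.28. Next came Toe1, a 3' exonuclease of small nuclear RNA, with 1.85 (FDR 0.00043), and the kinase Snrk with 1.58 (FDR 0.00055). Cyb5r3, a cytochrome b5 reductase, had 0.89 (FDR 0.00079), the palmitoyltransferase Zdhhc20 had 1.16 (FDR 0.00089), and the ubiquitin ligase Znrf1 had 0.43 (FDR 0.001). By size, the leading peaks lay in Tmie (2.33, FDR 0.019), in Gna12, a G protein alpha subunit (2.27, FDR 0.035), in Rxrb, a retinoid X receptor (2.03, FDR 0.019), in the clock gene Cry2 (1.96, FDR 0.023), in Ammecr1l (1.81, FDR 0.036) and in Tpgs1 (1.59, FDR 0.04). Satb1, a chromatin organiser of developing T cells, had 0.16 (FDR 0.03), the smallest change of the 30. A pair of the 30 is 1 site: the Clk3 peak and a peak on the other strand over the same bases had 0.36 and 0.38.

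Many more of these peaks passed in iNKT cells, and most of them were lower after Mettl3 loss. The authors' deposited table for iNKT cells had 1059 of 5243 lower (20.2%, Wilson 95% interval 19.1 to 21.3) and 258 higher (4.92%, 4.37 to 5.54). Those shares are close to the 19.8% lower and 5.84% higher of all peaks of the table, and the medians were close too, at -0.95 over the unspliced 3' UTR peaks (interval -1.0 to -0.88) and -0.98 over all peaks. A negative log2 fold change was listed for 68.6% of both. Spliced 3' UTR peaks were lower in 46.3% (199 of 430) and higher in 8.37%, with a median of -1.81. Of the lower unspliced peaks 1041 and of the higher ones 250 changed by at least 2-fold. Genes with a lower peak numbered 871 and those with a higher one 234.

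The lower iNKT peaks with the smallest FDRs lay in Prpf38b, Hmgb2, Jund, Satb1, Zfp36l2 and Dusp1. Prpf38b, a splicing factor, Hmgb2, a chromatin protein, and Jund, a subunit of AP-1, were listed at a log10 FDR of -434, the lowest value of the column, with log2 fold changes of -4.74, -5.05 and -3.18. Satb1 followed with -2.38 at a log10 FDR of -315. Zfp36l2, which binds AU-rich elements in 3' UTRs, had -3.43 (FDR 1e-294) over 808 nt of chromosome 17, from 84185247 to 84186054. The phosphatase Dusp1, which ends MAP kinase signalling, had -4.68 (FDR 1e-246). By size the leading peak lay in Pik3r5, a regulatory subunit of PI3K gamma, on chromosome 11 from 68496619 to 68496949, with -9.55 (FDR 2.5e-50) in the authors' deposited table. It was followed by Med13 of the Mediator complex (-7.86), Nfkbil1 (-7.75), Mtmr12 (-7.48), Als2cl (-7.41), the ubiquitin-conjugating enzyme Ube2h (-7.34), the adhesion molecule Icam1 (-7.30) and Dcaf8, a receptor of CUL4 ubiquitin ligases (-7.29). Each of these 8 had an FDR of 1e-17 or lower.

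The higher iNKT peaks were short and weakly enriched. Their median fold enrichment was 4.64, against 15.6 for the lower peaks and 7.42 for those that did not pass, and the upper quartile of their lengths was 210 nt, below the lower quartile of 240 nt of the lower peaks. Their changes were large, with a median log2 fold change of 4.98 against -3.59 for the lower peaks. The largest, 12.5 (FDR 1e-105), was a 60-nt peak in the kinesin gene Kif21b with a fold enrichment of 2.06, which lies 14793 nt before the 3' end of the gene. Next were Dnajc17 (10.5), Fbxo42 (10.5), Atp6ap1 (10.4), Eif4ebp2 (10.3), Mlec (10.3), Hivep3 (10) and Ampd1 (9.98), all at 239 nt or shorter. By FDR the first was Lars2, the mitochondrial leucyl-tRNA synthetase, with a log2 fold change of 8.59 at the lowest listed log10 FDR of -434. It was followed by a 61-nt peak in Tcf7, a transcription factor of early T cells, with 7.94 (FDR 1e-123). Dcaf8 had 5.02 (FDR 1e-112) and Spata13 8.04 (FDR 2.5e-83) in the authors' deposited table. H2-D1, an MHC class I gene, had 1.93 (FDR 1e-104); the authors named that peak H2-L, and reads of such near-identical genes may be split between copies.

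**Figure D1:**
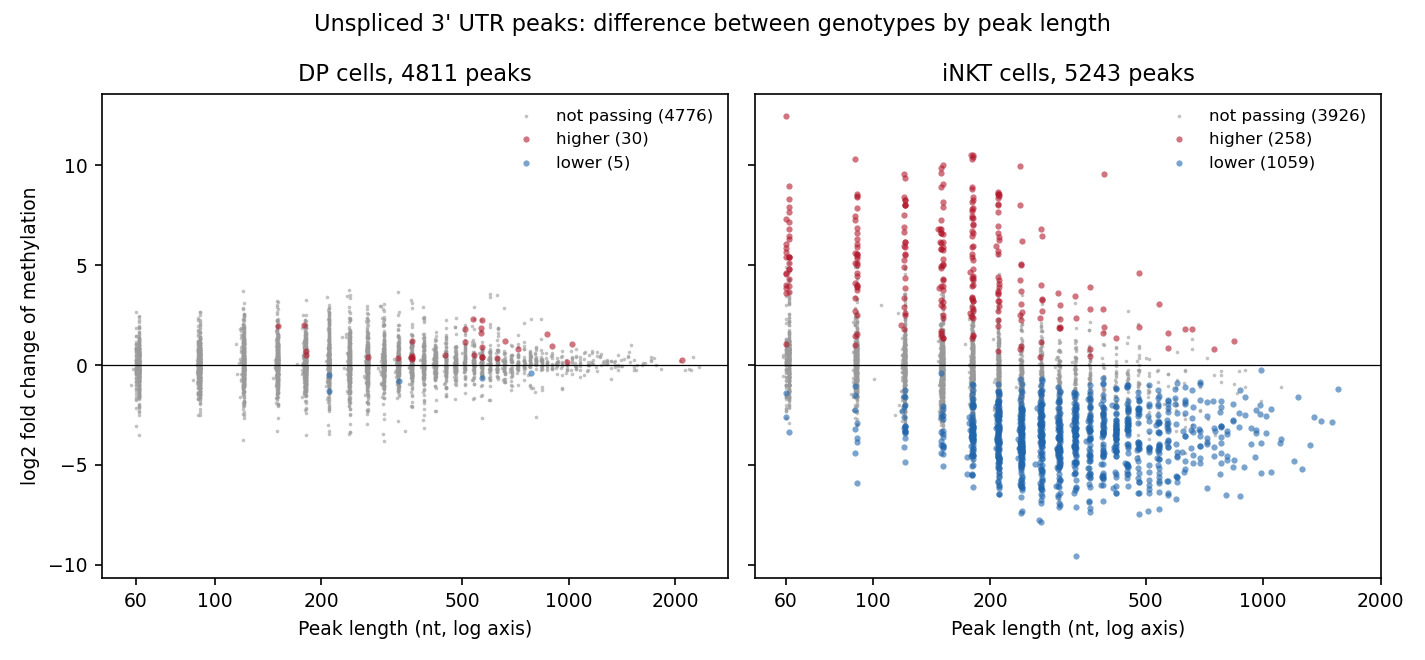
Log2 fold change of methylation between genotypes (vertical axis, negative is likely lower in Mettl3-deleted cells) against peak length in nt (horizontal log axis), each point 1 unspliced 3' UTR peak, in DP (4811) and iNKT (5243) cells. Blue points were lower and red points higher at a differential FDR of 0.05; in iNKT cells the lower points crowd at 200 nt and above while the higher ones crowd at 200 nt and below, and in DP cells no passing point lies at 150 nt or below.

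In iNKT cells the share of lower peaks was larger among longer peaks. It was 1.46% of the 820 unspliced 3' UTR peaks of up to 100 nt, 8.63% of the 1078 above 150 and up to 200 nt, 25.6% of the 1591 up to 300 nt, 48.8% of the 697 up to 500 nt and 69.7% of the 261 above 500 nt. The share of higher peaks went the other way, from 7.56% up to 100 nt to 2.68% above 500 nt. The median log2 fold change went from 0.29 in the shortest group to -2.95 in the longest. Reads per peak are not in these tables, and their part in this trend was not tested. All peaks of the table showed nearly the same shares, 2.55% lower up to 100 nt and 70.1% above 500 nt. Spliced 3' UTR peaks had 57.2% lower between 200 and 300 nt and 73.0% above 500 nt, so the gap between spliced and unspliced peaks was wide at the middle lengths and narrow at the top. In the DP table no unspliced 3' UTR peak of up to 150 nt passed, and 18 of the 30 higher ones were above 500 nt, 2.65% of the 678 peaks of that length, while 2 of them (0.295%) were lower. All DP peaks above 500 nt were higher in 1.52% and lower in 1.73%.

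**Figure D2:**
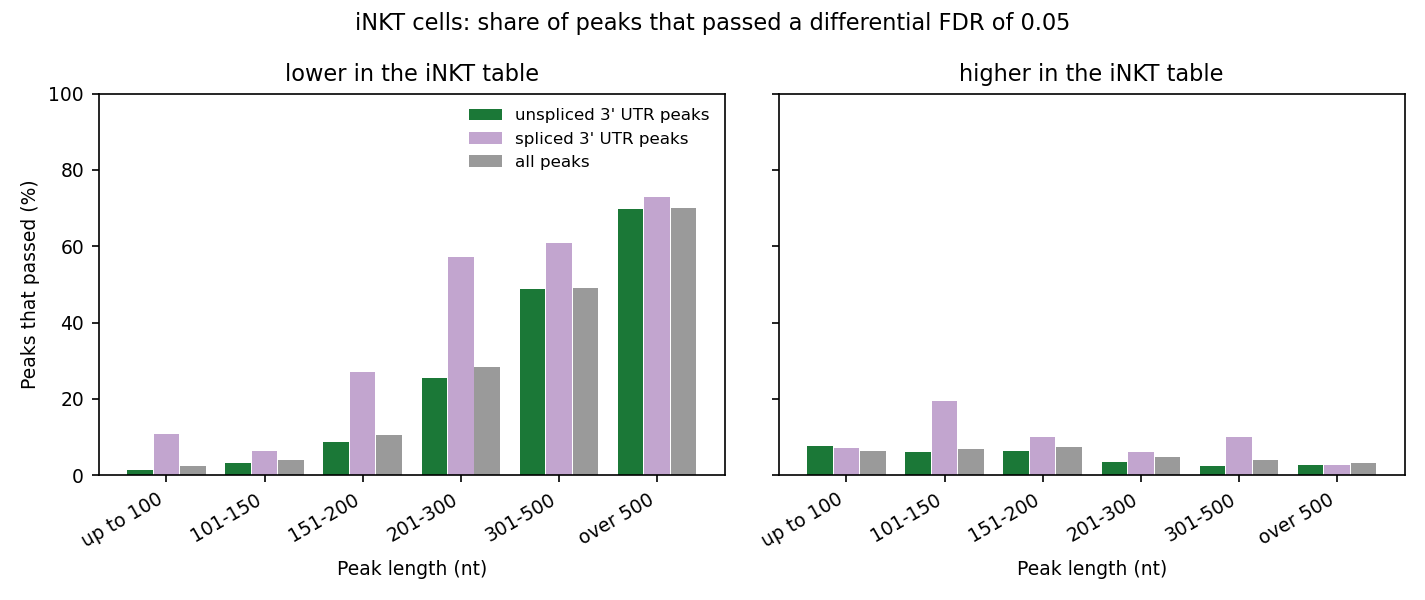
Percentage of iNKT peaks that were lower (left) or higher (right) at a differential FDR of 0.05 by peak length in nt, for unspliced 3' UTR peaks, spliced 3' UTR peaks and all peaks of the table. Bars for unspliced 3' UTR peaks climb on the left from 1.46% to 69.7% beside nearly equal bars for all peaks; the spliced bars rest on as few as 28 peaks.

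The shares also differed with enrichment. Above a fold enrichment of 32, 40.1% of 803 iNKT peaks were lower and 1.87% higher, between 2 and 4 the shares were 11.3% and 8.35% of 1006 peaks, and up to 2 they were 16% and 11.2% of 169. Over all peaks of the table the same shares were 28.1% and 2.18% above 32, 16.4% and 9.63% between 2 and 4, and 26.4% and 10.5% up to 2. The authors' deposited table builds both columns from the same libraries, so the pair of measures is not independent. Distance to the 3' end of the gene made little difference to the lower share in iNKT cells, but the higher share was smaller at the largest distance. The lower share ranged only from 18.2% of the 506 peaks beyond 5000 nt to 22.2% of the 1033 peaks between 1000 and 2000 nt, and it was 18.7% of the 523 peaks within 100 nt. The higher share was 6.69% within 100 nt and 2.96% beyond 5000 nt. All iNKT peaks inside a gene were lower in 19.2% and 20.0% and higher in 7.34% and 5.63% at those distances. In DP cells 6 of the 230 peaks within 100 nt of the gene's end were higher (2.61%), and none of the 716 beyond 5000 nt passed. Of all DP peaks inside a gene, 4.21% within 100 nt were higher (12 of 285), and beyond 5000 nt 1.0% were lower and 0.175% higher. The median distance was 1467 nt in DP and 1132 nt in iNKT cells, and peaks beyond 5000 nt are in 3' UTRs of some transcript of the authors' annotation but lie well inside the RefSeq gene.

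In iNKT cells, unspliced 3' UTR peaks were more negative than 5' UTR peaks of the same gene in 56.6% of genes with both. Over the 541 genes with both, the medians of the log2 fold change per gene were -1.19 and -0.58, the median difference within a gene was -0.59, and the 3' UTR value was below the other in 306 genes (56.6%). Against peaks annotated to exons, over 1102 genes, the medians were -1.0 and -1.10 and the median difference was 0.03. Against spliced 3' UTR peaks, over 138 genes, the difference was 0.42 and the unspliced value was below in 42.8%. In the authors' deposited DP table the same 3 differences were 0.04 (exon, 1139 genes), -0.03 (5' UTR, 352 genes) and 0.003 (spliced 3' UTR, 351 genes). No test was made of these differences, and peak lengths were not matched between the classes.

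Peaks of the same gene were set side by side, with no test of their differences, and they may belong to different transcripts of that gene. Genes with several unspliced 3' UTR peaks numbered 838 in DP and 937 in iNKT cells, and 776 and 876 had at least 2 peaks that do not overlap. The most peaks per gene were 9 in Zfp704, 8 in Adnp and 8 in Pakap in DP cells, at 6, 4 and 4 separate sites, and none of these peaks passed. In iNKT cells Zc3h11a had 9 rows, Ankrd11 8 and Ndor1 8. The 9 rows of Zc3h11a, which encodes a zinc finger protein of mRNA export, fall at 3 sites: the 2 sites nearest the gene's end were lower (log2 fold changes of -3.79 to -3.91 and of -3.52 to -3.60) and the third did not pass (-1.17 to -1.20). Ankrd11, a chromatin-associated ankyrin protein, had 8 separate peaks, of which 6 were lower, from -2.71 to -5.13, and the other two had -0.86 and -0.04. None of the 8 peaks of Ndor1, at 4 sites, passed, with values from -1.73 to 0.74. In 128 iNKT genes at least 2 passing peaks did not overlap, and in 84 genes at least 2 were lower and none higher. The same counts over all peaks are not given here.

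In iNKT cells 148 genes held at least 2 passing unspliced 3' UTR peaks, and in 33 of these genes peaks of both signs passed. The 33 genes were looked up after their values were seen. The higher peak lay nearer the 3' end than every lower one in 20 of them, the lower peak lay nearer in 10, and the order was mixed in 3. Counts over all peaks are not given here, so neither the 33 nor their order is read as a trait of unspliced 3' UTR peaks. Il7r, the receptor chain for interleukin 7, had 3 peaks on chromosome 15: the middle one (9507252 to 9507491) was higher, with a log2 fold change of 2.26 (FDR 4e-27), and its neighbours on both sides were lower, with -1.19 (FDR 7.9e-18) upstream and -3.07 (FDR 7.9e-21) downstream. The chemokine receptor gene Cxcr4 had a 356-nt lower peak (-1.70, FDR 7.2e-05) and, nearer the end, a 60-nt higher one (3.88, FDR 2e-20) with a fold enrichment of 1.64. Pik3ca, the catalytic subunit alpha of PI3K, had -4.03 (FDR 0.0014) and then 8.94 (FDR 4e-17). Eif4ebp2, a repressor of cap-dependent translation, had 2 higher peaks (10.3 and 3.08) around a lower one (-1.46) and 1 that did not pass. In Dcaf8 a lower peak (-7.29) and a higher peak (5.02) of 241 and 240 nt stood side by side. Med13 had -7.86 and 8.41, Mlec -2.45, -5.85 and 10.3, and Spata13 -1.18 and 8.04. Of the higher peaks named here, those of Cxcr4, Med13, Mlec and Spata13 were 121 nt or shorter.

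**Figure D3:**
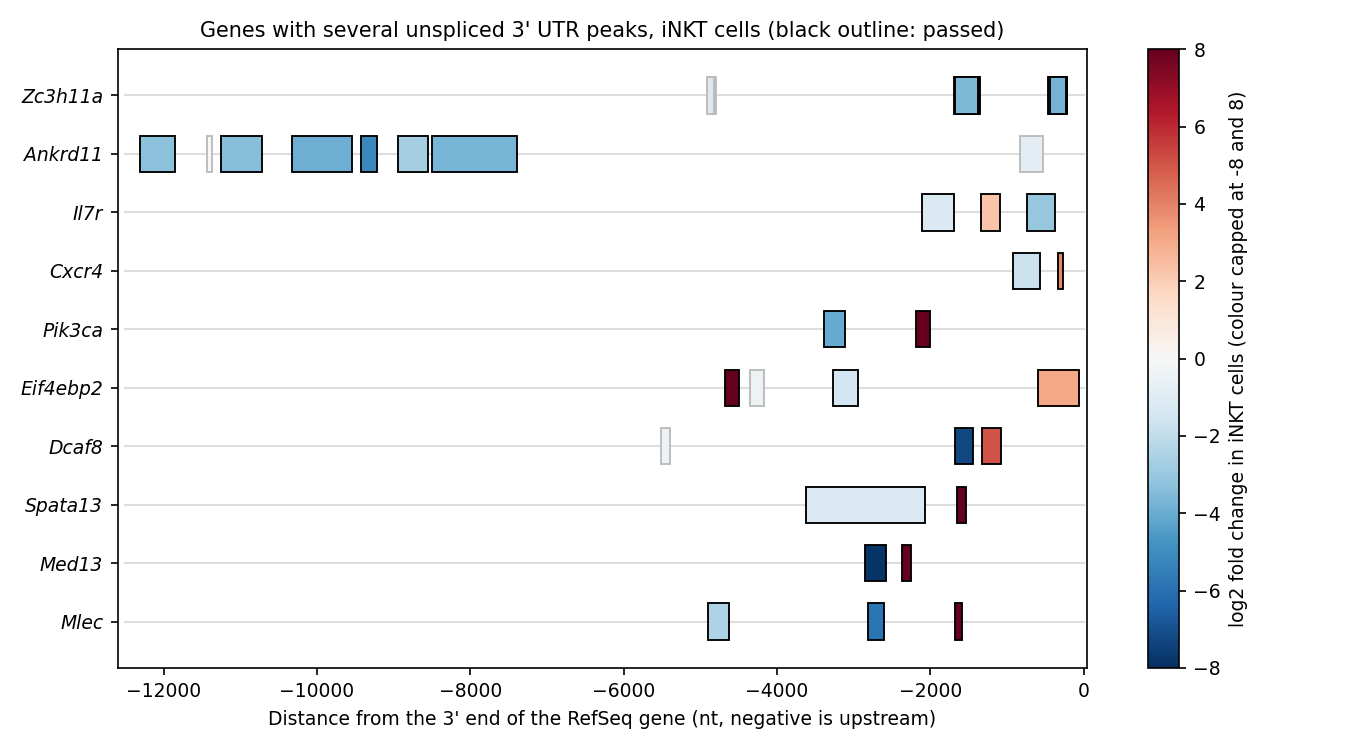
Unspliced 3' UTR peaks of 10 genes in iNKT cells, drawn to scale as boxes at their distance in nt from the 3' end of the RefSeq gene (0 at the right). Box colour gives the log2 fold change of methylation, blue for negative and red for positive, and a black outline marks peaks that passed; Ankrd11 is blue at 6 outlined sites, while Il7r, Cxcr4, Pik3ca, Eif4ebp2, Dcaf8, Spata13, Med13 and Mlec each hold outlined boxes of both colours.

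Between the cell types, 1925 DP peaks (40.0%) and 2031 iNKT peaks (38.7%) overlapped an unspliced 3' UTR peak of the other table by at least 1 base on the same strand, and 1850 pairs could be matched one to one. Matched peaks were longer, with medians of 301 nt in DP and 240 nt in iNKT cells against 181 and 180 nt for the unmatched. In iNKT cells 34.3% of peaks with a DP partner were lower and 1.77% higher, against 11.3% and 6.91% of peaks with none. Of the 258 higher iNKT peaks 222 had no partner in DP cells, as had 3212 of all 5243 iNKT peaks of this kind. Overlap shares over all peaks of each cell type are not given here, so none can be called particular to unspliced 3' UTR peaks. In DP cells 26 of the 30 higher peaks and none of the 5 lower ones had a partner. Over the 1850 pairs the log2 fold changes were nearly unrelated (Spearman rho 0.015, across peaks, which are not independent), with medians of 0.15 in DP and -1.79 in iNKT cells.

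Overlapping peaks passed in both cell types in 18 pairs, and in 16 of them the signs were opposite. A pair needed only 1 shared base, and the Clk3 site gave 2 of the 16, 1 on each strand. No matched DP peak was lower, so a pair that passed in both could only be higher in DP cells. Of the 26 matched peaks that were higher in DP cells, 16 were lower in iNKT cells, 2 were higher and 8 did not pass. Of all 1850 matched iNKT peaks 34.3% were lower, but length was not held equal in that comparison. The 30 higher DP peaks had a median length of 538 nt. In iNKT cells, unspliced 3' UTR peaks of 301 to 500 nt were lower in 48.8% and those above 500 nt in 69.7%. The part of length in the opposite signs was not tested. The tables share no libraries. Jund had 0.34 in DP (FDR 0.019) and -3.18 in iNKT cells in the authors' deposited tables. Satb1 had 0.16 and -2.38, and Bcl11b 0.28 and -3.08. Bin2, a membrane-binding protein of leukocytes, had 0.42 and -4.53, Znrf1 0.43 and -3.07, and Dgkz, a diacylglycerol kinase that damps T cell receptor signals, 0.44 and -2.86. The kinase Clk3 had 0.36 and -3.49, with its opposite-strand copy at 0.38 and -3.44. Larger DP values were found in Gna12 (2.27 and -3.95), Hs6st1 (1.22 and -5.46), Zdhhc20 (1.16 and -5.54), Xylt2 (0.96 and -4.42) and Cyb5r3 (0.89 and -0.89). Sash3 (0.53 and -3.97), Fam160b2 (0.41 and -5.05) and Grap2 (0.31 and -3.69) complete the opposite pairs. The 2 pairs that were higher in both lay in Sema7a, a semaphorin (0.80 and 1.59), and in Gnai2, an inhibitory G protein subunit (0.43 and 0.44). By the sum of both log10 FDRs, Zfp36l2, Dusp1, Cd27, Tbc1d10b and Selplg also stood among the leading 8, each lower in iNKT cells and not passing in DP cells, as with the costimulatory receptor Cd27 at 0.29 (DP) and -5.54 (iNKT).

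**Figure D4:**
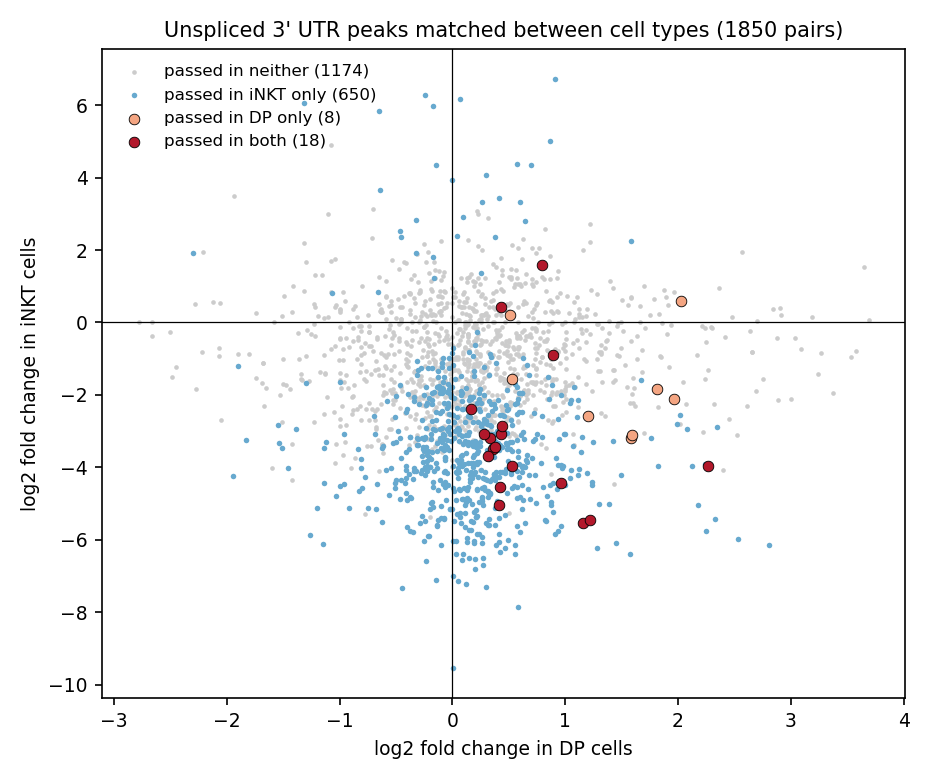
Log2 fold change of 1850 unspliced 3' UTR peaks matched between the tables, DP on the horizontal and iNKT on the vertical axis, each point 1 pair, coloured by the table in which it passed. The 18 pairs that passed in both (dark red) all lie right of 0, since no matched DP peak was lower, and 16 of them lie below the horizontal line.

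Gene groups are given by counts of peaks, beside the 20.2% lower and 4.92% higher of all iNKT unspliced 3' UTR peaks and their median of -0.95. No list is singled out, since the lists were made with earlier results of these data known and in 9 of the 12 lists the peaks had a median length above the 181 nt of all of them. Of 38 genes of iNKT development, 29 held such a peak in iNKT cells and 17 held a lower one. Of their 41 peaks 18 were lower and 5 higher, with a median length of 241 nt and a median log2 fold change of -1.69. The lower ones included Zbtb16, which encodes PLZF, the master regulator of the lineage (-2.52, FDR 3.2e-15), Tbx21, the T-bet gene of NKT1 cells (-4.41, FDR 9.1e-07) and Gata3 (-3.95, FDR 5e-13). The sphingosine receptor S1pr1, which lets cells leave the thymus, had -6.92 (FDR 1e-17) in the authors' deposited table. The higher ones lay in Cd1d1, which encodes the molecule that presents lipid to iNKT cells (5.40, FDR 8.5e-09), Hivep3, Il7r and, with 2 peaks, Tcf7. In DP cells the same list had 25 peaks, of which Satb1 and Bcl11b were higher and none lower.

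Of 32 DP identity genes, 18 held an unspliced 3' UTR peak in iNKT cells, with 13 of 24 peaks lower and 4 higher, and a median of -1.69. Ikzf3, the Aiolos gene, had 2 lower peaks (-4.81 over 1200 nt and -2.41), and the T cell receptor chain genes Cd3d and Cd3e had -4.84 and -0.97. The coreceptor genes Cd4 and Cd8b1 had -1.54 (FDR 7.9e-05) and -1.41 (FDR 1.9e-07). Ets1 had -2.96 (FDR 3.2e-51). The 4 higher peaks lay in 3 genes, Tcf7 and Cxcr4 among them, and Cxcr4 also held a lower peak. In DP cells, where 23 of the genes held 31 such peaks, Satb1 and Bcl11b were higher, none was lower, and the median was 0.10.

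Cytokine receptors and their JAK-STAT and SOCS genes gave 57 iNKT peaks in 32 of 44 genes, 25 lower in 20 genes and 2 higher, with a median of -1.74. Among the receptors, Il4ra had the largest drop (-6.84, FDR 3.2e-52), and Ifnar1 (-5.63), Il6ra (-5.20 and -2.70), Il18r1 (-5.00), Il17ra (-3.85) and Il2rb (-1.60, over 1229 nt) were lower too. Among the signal carriers Stat6, which acts below the interleukin 4 receptor, had -5.11 (FDR 6.8e-09), Stat3 -3.63, Jak2 -3.37 and Jak1 -3.01. Of the feedback inhibitors Cish had -4.12 (FDR 8.5e-08) and Socs3 -3.07 (FDR 0.0019), while a Socs1 peak had -0.72 (FDR 0.33) and did not pass. Tgfbr2, a TGF beta receptor chain, had a higher peak (2.66, FDR 1.6e-13) in the authors' deposited table. None of the 33 DP peaks of this list passed.

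T cell receptor signalling genes gave 41 iNKT peaks in 24 of 43 genes, of which 21 were lower in 17 genes and none was higher. At the authors' unadjusted p of 0.05, 22 were negative and none positive. Of all iNKT unspliced 3' UTR peaks only 4.92% were higher at the FDR, and their share at that p is not given here. The absence of higher peaks is therefore not read as a trait of this list. From receptor to nucleus, Cd247, the zeta chain, had -1.49, the kinase Lck had -0.93, and phospholipase Plcg1 had -6.08 (FDR 4e-20). Nfatc1 had 2 lower peaks (-3.52 and -3.84) and Nfatc2 1 (-4.88), both transcription factors that calcium switches on. Negative regulators were in the same group: Csk, which holds Lck inactive, had -4.26 (FDR 2e-33), the ubiquitin ligase Cbl -5.03 and -3.87, and Ubash3a -3.56. In DP cells Dgkz and Grap2 were higher among 42 peaks. PI3K, Foxo and mTOR genes gave 34 iNKT peaks in 21 genes, 11 lower in 8 genes and 4 higher in 3, with a median of -0.53. Pik3r1, the p85 alpha subunit, had -6.55 and -3.79, and Pik3cd, the catalytic subunit delta, had -2.79 over 839 nt and -2.22. Akt1 had a higher 91-nt peak (5.91, FDR 7.1e-10).

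Immediate early and AP-1 genes, whose messages are short-lived, gave 34 iNKT peaks in 25 of 35 genes, 18 lower in 15 genes and 2 higher, with a median log2 fold change of -2.45 and a median length of 299 nt. Fosb had -6.15 (FDR 3.2e-33), Dusp1 -4.68, Klf6 -4.71, Fos -4.16, Ier2 -3.90 over 986 nt, Nr4a1 -3.34 and Jund -3.18. Jun and Junb had smaller drops in the authors' deposited table, -1.84 and -1.65. Fosl2 (7.05, FDR 4e-21) and the antiproliferative gene Btg2 (2.93, FDR 0.00021) were higher. Their transcript levels were not measured here. In DP cells 1 of their 25 peaks, that of Jund, was higher and none was lower.

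Proteins that bind or decay mRNA gave 50 iNKT peaks in 31 of 58 genes, 13 lower in 12 genes and 3 higher, and a median of -0.46 over peaks shorter than those of most lists. Besides Zfp36l2, Upf1, the helicase of nonsense-mediated decay, had -6.15 (FDR 1.3e-33), Smg1, the kinase that acts on UPF1, -4.81 (FDR 1e-71), Tnrc6b, a partner of Argonaute, -5.03 (FDR 0.0032) and Arid5a -4.59 (FDR 2e-10). The higher peaks lay in Msi2 (8.41), Celf2 (4.32) and Btg2. Factors of mRNA 3' end formation gave 10 peaks in 7 of 25 genes, 5 of them lower: 3 in Rbbp6 (-6.04, -3.71 and -3.12) and 1 each in Scaf4 (-5.47) and Scaf8 (-3.48). The m6A machinery gave 9 peaks in 7 of 25 genes, 5 lower and none higher, also at the authors' unadjusted p of 0.05. With only 9 peaks, the absence of higher ones is not read as a trait of this list. Rbm15b, which guides the writer complex to its RNAs, had 3 lower peaks (-4.47, -2.78 and -2.70), the nuclear reader Ythdc1 had -1.48 (FDR 7.9e-18) and Pcif1 -3.05. The cytoplasmic reader Ythdf2 (-1.17, FDR 0.63), the writer subunit Wtap (-1.38, FDR 0.73) and the eraser Alkbh5 (-1.05) had peaks that did not pass.

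Chromatin regulators gave 54 iNKT peaks in 36 of 58 genes, 17 lower in 17 genes and 3 higher, with a median of -0.72. The acetyltransferase genes Crebbp and Ep300 had -6.22 and -3.89, the remodeller Chd2 -6.04 and the histone methyltransferase Setd2 -5.38. Tet2 (2.95, FDR 0.013), Smarcd1 (5.39) and a 120-nt peak of Kdm2a (9.59) were higher, and Kdm2a also held a lower peak (-1.50, FDR 0.048). Genes of the Bcl2 family and the p53 pathway gave 18 peaks in 12 of 35 genes, 5 lower and 1 higher. Bcl2 had 2 lower peaks of -4.12, Bbc3, a pro-apoptotic member, -4.58 and Bcl2l1 -3.08, while Mcl1, a survival factor, had a higher 181-nt peak (4.46, FDR 3.2e-31). Ribosomal and elongation factor genes gave 3 peaks, of which Eef2 (-0.94, FDR 6.3e-44) and Rpl13a (-1.05, FDR 4e-36) were lower. In DP cells none of the peaks of the chromatin, Bcl2 and p53, decay, 3' end, m6A, PI3K or ribosomal lists passed. Together with the cytokine list these are 8 lists with 199 peaks, counted once per list. At the authors' unadjusted p of 0.05, 4 of them were negative and 18 positive. The cytokine list held 1 of the 4 and 8 of the 18. The share of all DP unspliced 3' UTR peaks at that p is not given here, so no lean of these lists can be read from the counts.

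**Figure D5:**
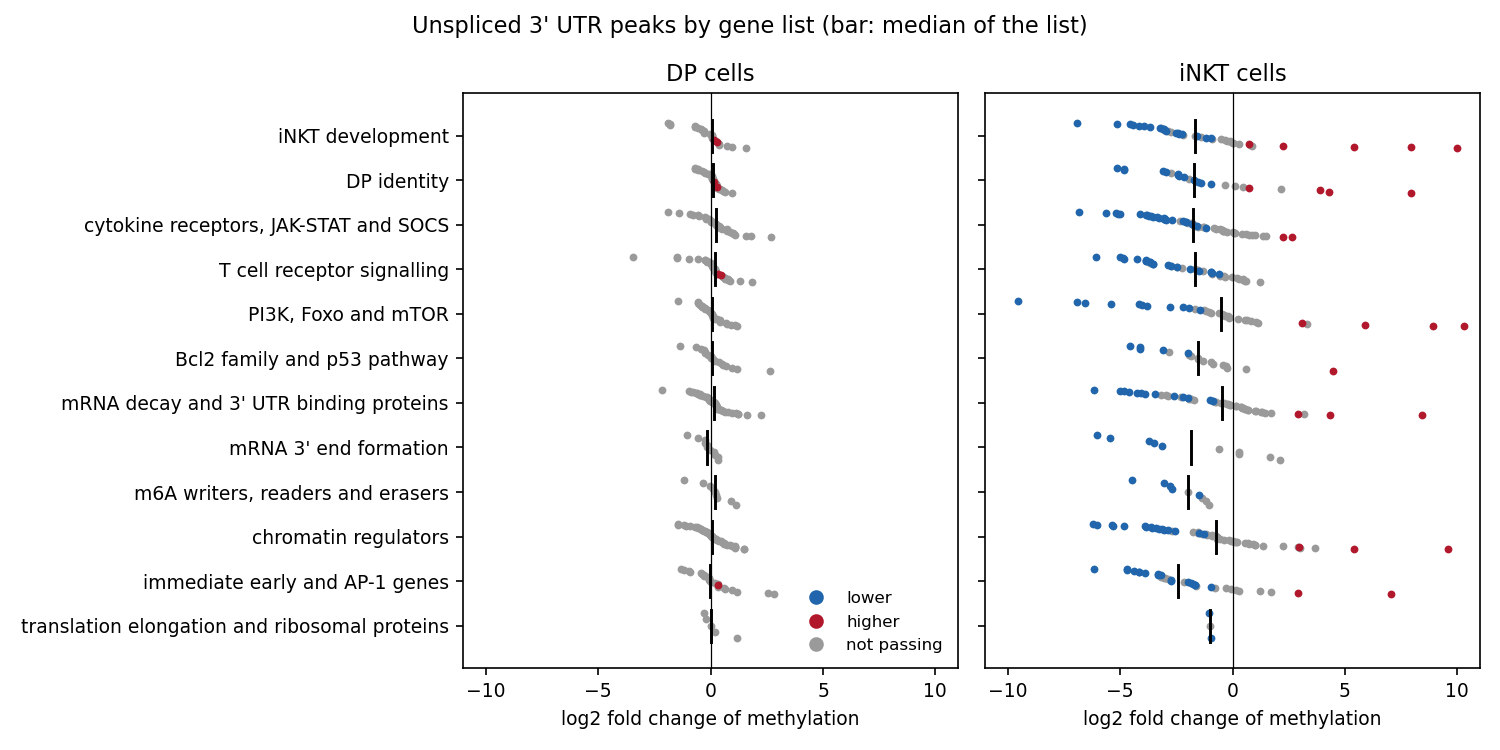
Log2 fold change of each unspliced 3' UTR peak in 12 gene lists, DP cells left and iNKT cells right, with the median of each list as a black bar. DP medians lie between -0.15 and 0.25 with few coloured points, and iNKT medians lie between -2.45 and -0.46, with blue points (lower) in every list.

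The cell types were checked by which marker genes had a peak, since expression was not measured here. Of 8 DP markers, 7 had a peak of any class in the DP table and 5 an unspliced 3' UTR peak, Cd4, Cd8a, Ptcra and Rag2 among them. Of 8 iNKT markers, 7 had a peak in the iNKT table, Zbtb16, Tbx21, Gata3, Il2rb, Klrb1c and Cd44 with an unspliced 3' UTR peak, and 3 had a peak in the DP table. Of the 8 DP markers 6 also had a peak in the iNKT table, Rag1 and Rag2 among them, where 3 of the unspliced 3' UTR peaks were lower, those of Cd4 and Cd8b1 among them. Of 21 markers of other thymus cells 2 had a peak in each table, Pecam1 in both, and none passed among the unspliced 3' UTR peaks. The share of other cells in the sorts was not tested.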

How the data were processed

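STAR 2.6.0a, RSEM 1.3.0, HOMER 4.9.1, Trim Galore 0.6.5 and FastQC 0.11.5 stand in the submitters' processing notes, with the build mm10. The deposited peaks carry the name exomePeak, which is taken as the peak caller, with no version given. Sources used here do not name the annotation or any pooling. Per the file headers, the authors' deposited tables hold a p-value of each peak, its fold enrichment as a linear ratio, and the log2 fold change between genotypes. The log10 values of p and FDR that the authors deposited beside them were treated as scores. The authors' gene lists were read as names only.

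Rows were read with Python 3.11.15 (pandas 2.3.3, numpy 2.4.6, statsmodels 0.14.6), members selected by position class and block count, and 3 DP and 10 iNKT repeats removed. Peaks passed at the authors' differential FDR of 0.05; no test of differences was added, since no values per library are in these tables. Shares have Wilson 95% intervals and medians binomial rank intervals. Counting and overlap code was tested on simulated data. Holding genes came from RefSeq positions (GRCm38.p6), with gene strands taken from RefSeq promoter records. Genes on the other strand were left out, and genes of unknown strand were allowed. Members and lists were chosen with earlier results of these data known. Named were, per table and direction, the 8 largest changes and 6 smallest FDRs, the 5 most enriched, the 3 longest, the 3 genes with most peaks, the 8 leading matched pairs with all that passed in both, and examples of 12 lists. A motif count over all members was planned but not run, because no mm10 genome was used here. Alternatives covered FDR, fold, enrichment, length, repeats, naming, overlap and sign.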

Additional observations from a re-analysis of the deposited data

How the results depend on the processing

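No paired analysis was possible because the tables hold no values per library; for the same reason no replicate could be left out, and depth per library cannot be set against any result. Of 54 alternative values, 35 stayed within the interval of the main value, 18 moved and 1 changed sign. Those intervals treat peaks as independent and hold no spread between replicates. Staying or moving is therefore a description of size and not a measure of how well a value would repeat. At a differential FDR of 0.01 the lower share was 0.0% in DP and 16.6% in iNKT cells, and the higher share 0.166% and 4.1%. With at least a 2-fold change as well, the DP shares were 0.0208% lower and 0.249% higher. With the sign turned, the shares change place: 0.624% lower and 0.104% higher in DP cells, 4.92% lower and 20.2% higher in iNKT cells. In iNKT cells a minimum length of 100 nt, which leaves out short peaks, gave 23.7% lower and a median log2 fold change of -1.24. With 1 peak per gene name the values were 24.1% and -1.22. Both depend on which peak of a name is kept, so the rise in the lower share is not read as a result. Set against the median of all iNKT peaks, the iNKT median log2 fold change became 0.0225. Overlap fell to 19.0% of DP and 17.5% of iNKT peaks where at least 50% of each peak had to be shared, and was 42.9% and 47.5% with any peak of the other table. Counting 1 peak per cluster of overlapping peaks, an alternative chosen after seeing the data, moved none of the 6 values it was applied to.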
